A study of Mus musculus with 9 samples.

Results

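The genes of mitochondrial complex I were examined in liver RNA sequencing of mice with nonalcoholic steatohepatitis (NASH). Members were all genes of the deposited table whose symbol begins with Nduf, which gave 45 of 24008 listed genes. They comprise 36 subunits, 7 assembly factors (Ndufaf1 to Ndufaf7) and 2 genes, Ndufa4 and Ndufa4l2, that share the name but are not counted as complex I genes here. Of these, 34 subunits, the 7 assembly factors and both other genes had enough counts to be tested, 43 in all.

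The 9 liver libraries, 3 per group, are taken here as 1 per mouse. Flox mice, labelled as wild type, carried IRF4, and F4MKO mice lacked IRF4 in skeletal muscle. The study's methods refer to an earlier report for this line, and its reporting summary lists Myl-Cre and floxed IRF4 mice, both of C57BL/6J background, without describing the cross. F4MKO+FSTL1 mice had the same deletion and overexpressed FSTL1, a secreted glycoprotein, from an adeno-associated virus (AAV8) with the muscle creatine kinase promoter that was injected into the gastrocnemius. All groups ate the same diet rich in fat and carbohydrate, and the study's methods place a GFP virus in the Flox and F4MKO mice, which the labels do not name. The methods give 24 weeks of diet before the virus in one place and 12 weeks in another, and 4 weeks from the virus to collection. The labels give neither the age nor the sex of the sequenced mice. The question was whether FSTL1 made by muscle carries an effect of muscle IRF4 to the liver.

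Complex I is the largest enzyme of the respiratory chain. It takes electrons from NADH in its N module, passes them along iron-sulfur clusters to ubiquinone in its Q module, and pumps protons across the inner mitochondrial membrane through a membrane arm with a proximal and a distal part. Core subunits carry out the chemistry and are encoded in part by the nucleus and in part by mitochondrial DNA, accessory subunits surround them, and assembly factors help to build the complex but do not remain in it. Hepatocytes are rich in mitochondria and depend on NADH oxidation for fatty acid breakdown, gluconeogenesis and urea synthesis.

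The libraries held 20656976 to 24322984 counted reads each, and TMM factors, which correct library sizes, ran from 0.927 to 1.17. All 10 hepatocyte markers had enough counts to be tested, and together they made up 7.67% to 10.2% of the counts of a library. They were not all abundant, since Asgr1 had 177 to 233 counts per library. Of 6 muscle markers, Acta1, Ckm and Myh4 had 3 counts or fewer in every library, Tnnt3 had 0 to 6 and Actn3 1 to 7. Mylpf, the only one with enough counts to be tested, had 15 to 33 counts in Flox, 17 to 23 in F4MKO and 26 to 29 in F4MKO+FSTL1 libraries. Since IRF4 was deleted in muscle, its liver counts do not check the genotype. They were 101 to 132 in the Flox and F4MKO libraries, 92 and 116 in replicates 2 and 3 of F4MKO+FSTL1, and 10 in replicate 1. Liver Fstl1 had 138 to 186 counts in Flox, 234 to 456 in F4MKO and 67 to 114 in F4MKO+FSTL1 libraries, and the virus was injected into muscle. Liver Fstl1 and the sums of macrophage and stellate cell markers were thus lowest in the libraries labelled F4MKO+FSTL1. The deletion and the virus were both placed in muscle, so no gene in these liver libraries marks either one directly. Every direction between groups given here rests on the labels. The study reports less liver fibrosis and fewer macrophages in F4MKO, both reversed with FSTL1, and unchanged liver Fstl1 mRNA. From liver RNA sequencing it also reports the KEGG gene set of fatty liver disease as repressed in F4MKO against controls, and activated with FSTL1 against F4MKO. That gene set was not examined here. Here Col1a1 had log2 fold changes of 1.41 (F4MKO versus Flox) and -2.25 (F4MKO+FSTL1 versus F4MKO). In each comparison, 9 of 10 stellate cell markers, Col1a1 included, had that sign. These directions are opposite to the report on fibrosis, and the reason was not tested.

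The promoters of 3 members are shown. In F4MKO+FSTL1 versus F4MKO, Ndufaf4 had the smallest p-value of the members, and Ndufaf5 was the only member of opposite sign to the others. The third, Ndufs7, is a core subunit. The promoters are RefSeq sequences of build GRCm38.p6 on the plus strand, from 200 bases before the transcription start. Ndufaf4 lies at chr4:24897883-24898112, Ndufaf5 at chr2:140170446-140170675 and Ndufs7 at chr10:80249249-80249480. Capitals mark the letters GCATGCGC, found in sites of NRF1, or AAGATGGC, found in sites of YY1, on either strand.
Ndufaf4: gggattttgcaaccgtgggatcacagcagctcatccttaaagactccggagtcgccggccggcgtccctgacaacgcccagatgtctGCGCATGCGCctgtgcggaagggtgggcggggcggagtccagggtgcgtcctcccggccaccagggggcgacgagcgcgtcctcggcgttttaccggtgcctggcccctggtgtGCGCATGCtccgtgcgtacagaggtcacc
Ndufaf5: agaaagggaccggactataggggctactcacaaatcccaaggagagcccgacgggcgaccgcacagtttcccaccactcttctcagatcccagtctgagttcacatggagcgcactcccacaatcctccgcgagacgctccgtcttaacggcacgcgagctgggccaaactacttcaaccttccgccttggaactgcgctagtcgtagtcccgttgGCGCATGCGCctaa
Ndufs7: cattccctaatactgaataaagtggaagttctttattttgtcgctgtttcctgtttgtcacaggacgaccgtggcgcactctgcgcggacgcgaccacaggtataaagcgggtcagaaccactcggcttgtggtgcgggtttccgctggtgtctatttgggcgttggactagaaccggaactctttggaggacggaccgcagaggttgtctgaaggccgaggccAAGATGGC
In Ndufaf4 the NRF1 letters lie at 111 bases before the start on the same strand, overlapping a match on the opposite strand, and again just after the start on the opposite strand. In Ndufaf5 they begin 17 and 19 bases after the start, on opposite strands, and also overlap. In Ndufs7 the YY1 letters begin 25 bases after the start. Promoters of 300 bases were found for 39 of the 45 members. The NRF1 letters were in 5 of these (12.8%) against 3.05% of 27025 genes, and the YY1 letters in 7 (17.9%) against 3.19%. The letters CCGGAAGT of ETS factors were in 1 member (2.56%, against 4.31%) and CAAGGTCA of estrogen-related receptors in 1 (2.56%, against 1.76%). All motifs were searched on both strands, and a match is a description of letters, not a bound site.

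In Flox livers the members were expressed over a wide range. Levels between genes are given as CPM (counts scaled to a common library size after TMM) per kilobase of the principal transcript. Among subunits, Ndufb9, an accessory subunit of the distal pump, was highest at 326 ± 27.5 CPM per kb (SD, n = 3). It was followed by Ndufa6 at 258 ± 21.2 and Ndufa3 at 233.5 ± 24.4, and the libraries of Ndufb9 did not overlap those of Ndufa6. The lowest subunits were Ndufb2 at 8.62 ± 0.418 and Ndufab1 at 19.99 ± 1.23, whose annotated principal transcripts, at 4371 and 3479 bases, are the longest of the subunits, so that their levels depend on that choice. All 7 assembly factors were lower than all subunits but Ndufb2, from Ndufaf1 at 18.6 ± 1.16 to Ndufaf5 at 3.99 ± 0.431 CPM per kb. Ndufa4, now assigned to complex IV, was the highest of the 43 at 650 ± 33.7, and its paralog Ndufa4l2 was the lowest at 2.44 ± 0.0373.

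Ndufs3, a core subunit of the Q module, and Ndufa7, an accessory subunit of the N module, could not be tested. Ndufs3 had 0 to 9 counts and Ndufa7 0 to 2 counts per library, whereas each of the other core subunits passed the filter on low counts. Rps28, a ribosomal protein gene used by every cell, had 2 to 7 counts, so a count near 0 in this table need not mean that a gene is silent. Ndufaf8 was not analysed here.

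To see how muscle IRF4 loss related to complex I, F4MKO livers were compared with Flox livers. All 43 members had a negative log2 fold change in F4MKO, and none passed the test. With library totals in place of TMM this held for 33 of 34 subunits and 4 of 7 assembly factors, and that scaling moved the median of all genes to 0.114. Without F4MKO replicate 1 it held for 33 subunits and 5 assembly factors, and with a trend over the length and GC content of transcripts removed and centred for 34 and 5. By edgeR's quasi-likelihood test, with p-values adjusted by Benjamini and Hochberg over 14379 genes, 0 members reached an adjusted p under 0.05, with or without a fold change above 1.5, against 0.278% and 0.271% of all genes. The lowest adjusted p of a member was 0.146. DESeq2 also called 0 members, and it put 1.94% of all genes at an adjusted p under 0.05. At an unadjusted p under 0.05, 14 of 43 were lower (32.6%), against 7.51% of all genes. In 10 of 43 (23.3%), the F4MKO libraries lay below all Flox libraries, against 10% of all genes. The median log2 fold change was -0.29 for the 34 subunits and -0.13 for the 7 assembly factors, beside a median of about zero over all genes. With the centred trend removed these medians were -0.162 and -0.044, and relative to all genes subunits stood at -0.15 with the trend removed in either form. Library totals gave -0.183 for subunits and -0.017 for assembly factors. Without F4MKO replicate 1 the median of assembly factors was -0.035, and without replicate 3 it was -0.217.

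The lower levels were not shared evenly by the F4MKO libraries. Summed over subunits, the level was 3402, 2963 and 3283 CPM in Flox replicates 1 to 3, and 2306, 2594 and 3094 CPM in F4MKO replicates 1 to 3. F4MKO replicate 3 lay within the Flox range. In F4MKO replicate 1, 34 of 34 subunits lay below all Flox libraries, in replicate 2 this held for 31 and in replicate 3 for 7. For 41 nuclear genes of complexes II to V it held for 40, 38 and 5. The share over all genes was not counted by library, so these counts do not set subunits apart from other genes. Without F4MKO replicate 1 the median of subunits was -0.19, and without replicate 3 it was -0.43. F4MKO replicate 1 also had the lowest sum of hepatocyte markers, 67710 CPM, against 94290 to 99180 in Flox and 96420 and 98950 in the other F4MKO libraries. Cholangiocyte markers summed to 187 to 469 CPM in F4MKO and 70.9 to 110 CPM in Flox, with F4MKO replicate 1 highest. Spp1 alone gave 143 to 397 CPM of the F4MKO sums and 42.2 to 78.2 CPM of the Flox sums. All 7 tested markers had positive values, and 3 of 7 were called higher, against 29 of 14379 genes. Stellate cell markers summed to 712 to 803 CPM in F4MKO and 588.8 to 651.5 CPM in Flox, without overlap. Of these, 9 of 10 had positive values and 0 passed, with 3 at an unadjusted p under 0.05, and the largest were the fibrillar collagens Col1a1 at 1.41 and Col3a1 at 1.12 (adjusted p = 0.061 and 0.0548 by edgeR's test). Macrophage markers summed to 661 to 1064 CPM in Flox and 837 to 894 CPM in F4MKO, which overlap. Single macrophage markers differed in both directions, with 6 higher, 4 lower and 0 passing. At an unadjusted p under 0.05 by edgeR's test, Cd68 was higher (0.47), and Marco (-1.41) and Timd4 (-1.26) were lower. The part of cell composition in the subunit levels was not tested, and fewer cells of a type cannot be told apart from less RNA per cell in whole tissue.

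**Figure D1:**
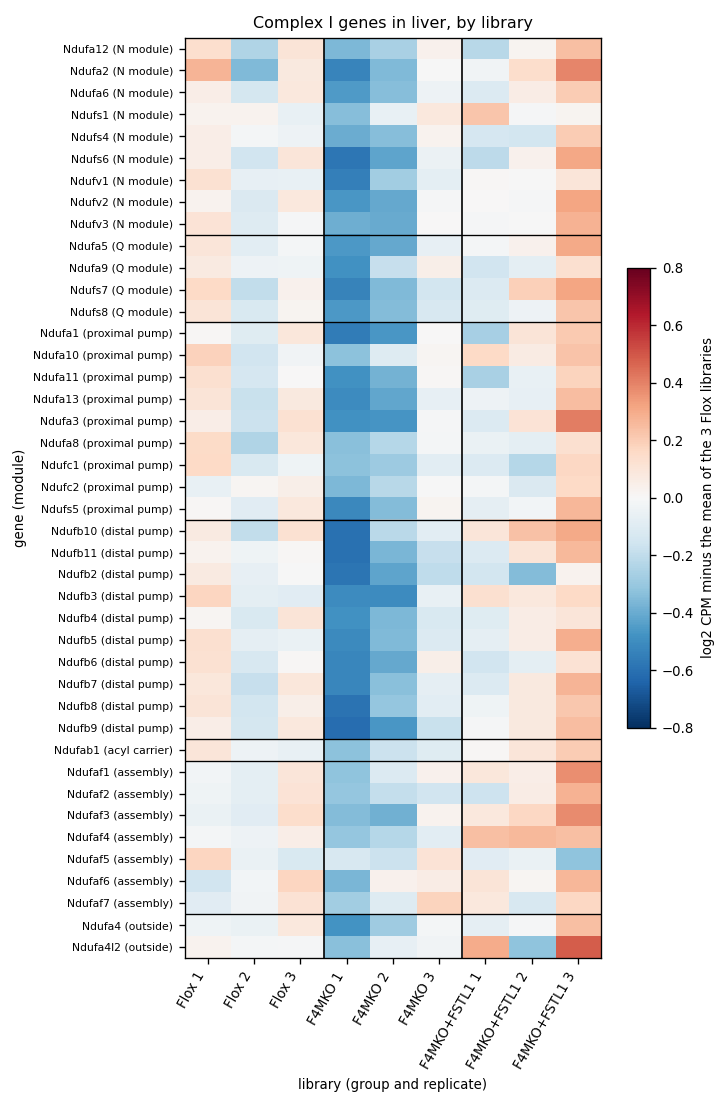
Heat map of 42 members (rows, by module) in 9 liver libraries (columns), as log2 CPM minus the mean of the 3 Flox libraries of that gene. F4MKO replicates 1 and 2 are below the Flox mean for 33 of the 33 subunits drawn and replicate 3 for 23, and F4MKO+FSTL1 replicate 3 is above it for all 33.

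The distal pump held the largest differences. All 10 of its tested subunits were lower in F4MKO, with a median of -0.32, close to the -0.3 of the Q module. Of the 10, 8 had an unadjusted p under 0.05, against 7.51% of all genes lower by that rule. Modules were not tested against each other in this comparison. Ndufb9 was at 238, 207 and 243 CPM in Flox, and 150, 166 and 202 CPM in F4MKO. Its log2 fold change was -0.41 (standard error 0.13, adjusted p = 0.154 by edgeR's test), and its groups did not overlap. A neighbouring gene on the same strand shares 19.5% of the exon bases of Ndufb9. Ndufb2 differed by -0.40 (standard error 0.12, adjusted p = 0.146) and Ndufb11 by -0.37 (standard error 0.12, adjusted p = 0.174), both also without overlap. Ndufb6 differed least in this module, by -0.28 (adjusted p = 0.355).

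In the N module, which binds NADH, all 9 tested subunits were lower, with a median of -0.27. Ndufs6, an accessory subunit that binds zinc, differed most, by -0.34 (standard error 0.16, adjusted p = 0.303 by edgeR's test). Ndufv1 carries the NADH-binding site and FMN. It was at 142, 125 and 125 CPM in Flox and 89.2, 108 and 124 CPM in F4MKO, without overlap (log2 fold change -0.29, standard error 0.12, adjusted p = 0.26). Ndufv2, its iron-sulfur partner, was at 111, 100 and 115 CPM in Flox and 78.4, 81.7 and 108 CPM in F4MKO, which overlap (log2 fold change -0.28, adjusted p = 0.325). Ndufs1, the largest core subunit of the module, was at 106, 106 and 99.8 CPM in Flox and 82.0, 99.8 and 110 CPM in F4MKO. Its groups overlapped, and its difference of -0.10 (standard error 0.12, adjusted p = 0.72) was the smallest of all subunits.

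In the Q module, all 5 tested subunits were lower, with a median of -0.30. Ndufs7 holds the last iron-sulfur cluster before ubiquinone. It was at 107.5, 83.8 and 98.7 CPM in Flox and 66.4, 75.4 and 86.7 CPM in F4MKO, with 1 F4MKO library inside the Flox range (log2 fold change -0.34, standard error 0.14, adjusted p = 0.25 by edgeR's test). Ndufs8, another cluster-bearing subunit, was at 82.7, 70.8 and 78.5 CPM in Flox and 56.1, 60.8 and 70.5 CPM in F4MKO. Those groups did not overlap, with a difference of -0.31 (standard error 0.12, adjusted p = 0.225).

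In the proximal pump, all 9 subunits were lower, with a median of -0.26 and no group without overlap. Ndufa13, also known as GRIM-19, differed most, by -0.32 (standard error 0.14, adjusted p = 0.278 by edgeR's test), and another gene on the opposite strand shares 30.0% of its exon bases. Ndufa10 differed least, by -0.14 (adjusted p = 0.597). Ndufab1, the mitochondrial acyl carrier protein, differed by -0.20 (standard error 0.10, adjusted p = 0.324), with groups that did not overlap.

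Assembly factors differed less. Ndufaf4, which acts on the Q module during assembly, was at 37.0, 36.4 and 38.8 CPM in Flox and 30.2, 31.9 and 35.3 CPM in F4MKO, without overlap (log2 fold change -0.20, standard error 0.09, adjusted p = 0.26 by edgeR's test). Ndufaf2, a chaperone for the N module, differed by -0.22 (standard error 0.13, adjusted p = 0.43), also without overlap, and shares 65.6% of its exon bases with a noncoding gene on the opposite strand. Ndufaf1, part of the MCIA assembly complex, was at 26.5, 25.5 and 28.8 CPM in Flox and 21.5, 24.9 and 27.6 CPM in F4MKO (log2 fold change -0.13, adjusted p = 0.629). Ndufaf3, the partner of Ndufaf4, was at 6.29, 6.11 and 7.19 CPM in Flox and 5.13, 4.98 and 6.63 CPM in F4MKO (log2 fold change -0.23, adjusted p = 0.49). These groups overlapped for Ndufaf1 and Ndufaf3. The values for Ndufaf5, Ndufaf6 and Ndufaf7, the last an arginine methyltransferase, were -0.06, -0.08 and -0.06, each within 1 standard error of no change, and their signs, like that of Ndufs1, turned when library totals replaced TMM.

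To see what FSTL1 overexpression in muscle added to IRF4 loss, F4MKO+FSTL1 livers were compared with F4MKO livers. This comparison shares the F4MKO libraries with the one above, so that low F4MKO values enter both with opposite sign. Of the 43 members, 42 were higher in F4MKO+FSTL1, and 9 rose at an adjusted p under 0.05. These were Ndufb3, Ndufb5, Ndufb9, Ndufb10 and Ndufb11 of the distal pump, Ndufa5 and Ndufs7 of the Q module, the acyl carrier Ndufab1 and the assembly factor Ndufaf4. That is 20.9% of members, the same share as the 20.9% of all genes called in either direction, but all 9 were higher, against 7.73% of all genes called higher. None had a fold change above 1.5 as well, by edgeR or DESeq2, where 14.4% of all genes did by edgeR. At an unadjusted p under 0.05, 28 were higher (65.1%, against 15.8% of all genes), and in 19 (44.2%, against 18%) the F4MKO+FSTL1 libraries lay above all F4MKO libraries.

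The median log2 fold change was 0.34 for subunits and 0.28 for assembly factors, beside 0.01 over all genes. Summed over subunits, the level was 3143, 3287 and 3725 CPM in F4MKO+FSTL1 replicates 1 to 3, all above the highest F4MKO library. The count of 9 rested on single libraries. In brackets is the share of all genes at an adjusted p under 0.05 in either direction in the same setting. The count was 1 without F4MKO replicate 1 (11.1%), 2 without F4MKO replicate 2 (15.9%) and 26 without F4MKO replicate 3 (20.9%). It was 2 and 1 without F4MKO+FSTL1 replicates 2 and 3 (10.6% and 17.5%). With DESeq2 it was 16 (13.5%), and with library totals in place of TMM it was 0 (22.6%). Over all these settings, 30 to 34 subunits were higher, 30 being with library totals, which moved the median of all genes to -0.184 and left subunits 0.33 above it. With the centred length and GC trend removed, chosen after the uncentred form had given 23, the count was 6 and subunits stood 0.19 above all genes. Of all genes, 22.3% passed in the centred form and 30.7% in the uncentred form. Each of the 9 stayed under 0.05 in 9 (Ndufab1) to 18 (Ndufaf4) of 19 alternative settings. Macrophage markers summed to 837 to 894 CPM in F4MKO and 400.0 to 625 CPM in F4MKO+FSTL1, and stellate cell markers to 712 to 803 and 417 to 572.5 CPM. Cholangiocyte markers summed to 55.0 to 71.0 CPM in F4MKO+FSTL1, of which Spp1 gave 29.85 to 45.56 CPM, against 187 to 469 CPM in F4MKO. Hepatocyte markers summed to 80350 to 97190 CPM in F4MKO+FSTL1. By the rule with a fold change above 1.5, 6 of 10 macrophage, 5 of 10 stellate cell and 5 of 7 cholangiocyte markers fell, and 1 of 10 hepatocyte markers rose. Of 14379 genes, 1609 fell and 461 rose by this rule. The part of the marker shifts in the complex I values was not tested.

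**Figure D2:**
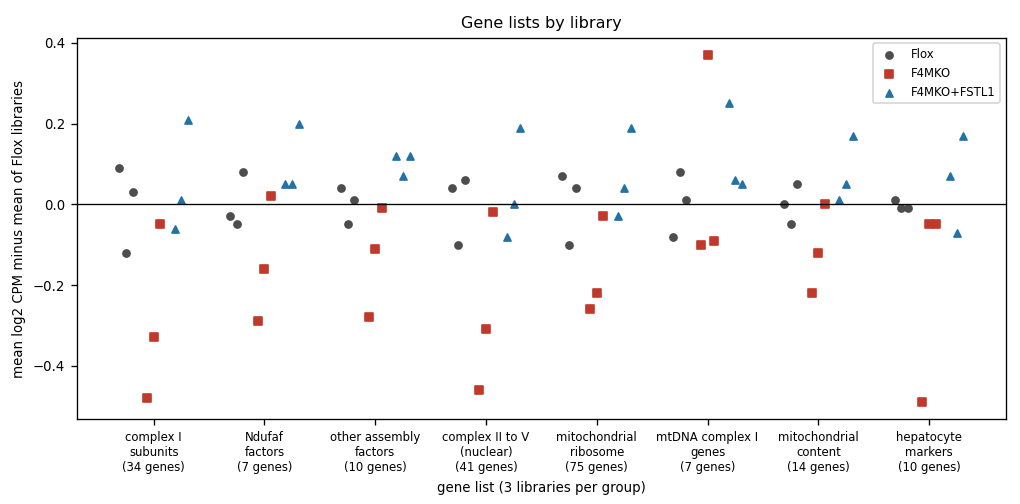
Mean log2 CPM of 8 gene lists in each library, minus the mean of the 3 Flox libraries (1 point per library, 3 per group). For complex I subunits the F4MKO points lie at -0.48, -0.33 and -0.05 and the F4MKO+FSTL1 points at -0.06, 0.01 and 0.21, and F4MKO replicate 1 also stands low for hepatocyte markers, at -0.49.

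Ndufaf4 had the smallest p of the members. It was at 30.2, 31.9 and 35.3 CPM in F4MKO and 44.2, 44.8 and 44.3 CPM in F4MKO+FSTL1. All F4MKO+FSTL1 libraries lay above all libraries of both other groups. It rose by 0.45 on the log2 scale (standard error 0.09, adjusted p = 0.00471 by edgeR's quasi-likelihood test). It stayed under 0.05 in 18 of 19 alternative settings, where its adjusted p ran from 0.000169 to 0.0526, the highest being with library totals. Among the other assembly factors, Ndufaf3 was at 6.92, 7.31 and 8.46 CPM in F4MKO+FSTL1, above the F4MKO libraries (log2 fold change 0.44, standard error 0.15, adjusted p = 0.0667). Ndufaf1 was at 28.6, 27.9 and 34.8 CPM, also above (0.30, standard error 0.12, adjusted p = 0.0958), and Ndufaf2 at 9.02, 10.5 and 12.3 CPM, with overlap (0.28, adjusted p = 0.15). Ndufaf6 differed by 0.21 and Ndufaf7 by 0.10 (adjusted p = 0.328 and 0.637). Ndufaf5 was at 4.24, 4.10 and 4.99 CPM in F4MKO and 4.35, 4.47 and 3.71 CPM in F4MKO+FSTL1, with overlap. Its value of -0.09 (standard error 0.16, adjusted p = 0.731) was the only negative one, and without F4MKO replicate 3 it was 0.003.

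In the distal pump, 5 of 10 subunits passed, against 7.73% of all genes called higher, and the median was 0.41. Ndufb9 was at 228, 242 and 272 CPM in F4MKO+FSTL1, all above its F4MKO values, and rose by 0.52 (standard error 0.13, adjusted p = 0.0167 by edgeR's test), the largest value of all members. Ndufb10 was at 61.2, 79.7 and 87.3 CPM in F4MKO and 98.9, 109 and 114 CPM in F4MKO+FSTL1, and rose by 0.50 (standard error 0.14, adjusted p = 0.0257). Ndufb11, an X-linked subunit, was at 85.8, 100.5 and 114 CPM and then 120.3, 139 and 155 CPM, and rose by 0.47 (standard error 0.12, adjusted p = 0.0225). Ndufb3 was at 30.5, 30.5 and 41.5 CPM in F4MKO and 47.3, 46.0 and 48.3 CPM in F4MKO+FSTL1, and rose by 0.46 (adjusted p = 0.025). Ndufb5 rose by 0.42 (adjusted p = 0.0394). None of these 5 groups overlapped. Ndufb6 had the smallest value here, 0.24 (adjusted p = 0.259).

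In the Q module, Ndufs7 was at 89.1, 109.8 and 119 CPM in F4MKO+FSTL1, above its F4MKO values, and rose by 0.48 (standard error 0.14, adjusted p = 0.0336 by edgeR's test). Ndufa5 was at 39.4, 40.8 and 51.9 CPM in F4MKO and 53.7, 55.6 and 67.1 CPM in F4MKO+FSTL1, and rose by 0.42 (standard error 0.12, adjusted p = 0.0356). Ndufs8 was at 72.0, 75.2 and 89.9 CPM, above its F4MKO libraries, with a value of 0.34 (adjusted p = 0.0621). Ndufa9 had the smallest value of all subunits, 0.16 (adjusted p = 0.405). Ndufab1 was at 55.4, 61.8 and 65.0 CPM in F4MKO and 70.0, 74.2 and 79.9 CPM in F4MKO+FSTL1, and rose by 0.30 (standard error 0.10, adjusted p = 0.0461).

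No subunit of the N module or the proximal pump passed. In the N module the median was 0.32 and Ndufa2 had the highest value, 0.46 (adjusted p = 0.088 by edgeR's test). Ndufv1 was at 131, 130.0 and 140 CPM and Ndufv2 at 108.5, 108 and 135 CPM in F4MKO+FSTL1, both above their F4MKO libraries, with values of 0.32 and 0.39 (adjusted p = 0.0791 and 0.0647). Ndufs1 was at 121, 103 and 106 CPM, which overlaps F4MKO, with a value of 0.18 (adjusted p = 0.312). In the proximal pump the median was 0.28, from 0.18 for Ndufc1 (adjusted p = 0.319) to 0.46 for Ndufa3 (adjusted p = 0.0676). Differences between modules were not tested.

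**Figure D3:**
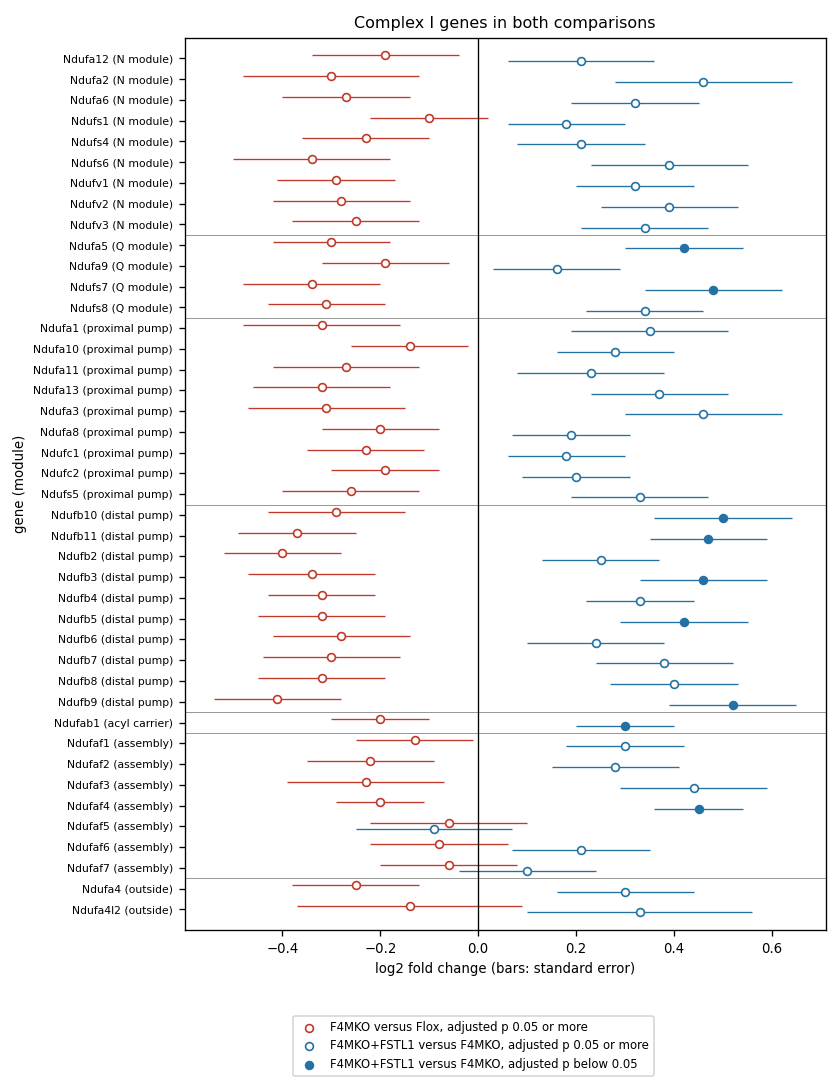
Log2 fold changes of 42 tested members with standard errors, for F4MKO versus Flox (red) and F4MKO+FSTL1 versus F4MKO (blue), filled where the adjusted p is below 0.05. All 42 red points lie below 0, and 41 of 42 blue points lie above it, the exception being Ndufaf5 at -0.09.

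Compared with Flox, F4MKO+FSTL1 livers showed small values in either direction. Of the 43 members, 35 were higher and 8 lower, and 0 were called by edgeR or DESeq2. Of all genes, edgeR called 0.00695%, and DESeq2 put 1.34% at an adjusted p under 0.05. The median was 0.07 for subunits and 0.13 for assembly factors. Neither the split nor the sign of the subunit median was stable. Of the 34 subunits, 27 were higher and 7 lower, but 17 were higher and 17 lower with library totals (median -0.007), 15 higher and 19 lower without F4MKO+FSTL1 replicate 3 (median -0.008) and 18 higher and 16 lower without Flox replicate 2 (median 0.01). At an unadjusted p under 0.05, 1 of 43 was higher (2.33%), below the 4.26% of all genes, and in 2 (4.65%, against 7.44%) the F4MKO+FSTL1 libraries lay above all Flox libraries. The 1 was Ndufaf4, with a value of 0.25 (standard error 0.09, adjusted p = 0.235 by edgeR's quasi-likelihood test) and groups that did not overlap. The sums of macrophage and stellate cell markers in F4MKO+FSTL1 also lay below those of all Flox libraries. A p that misses the threshold does not show that levels are equal.

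**Figure D4:**
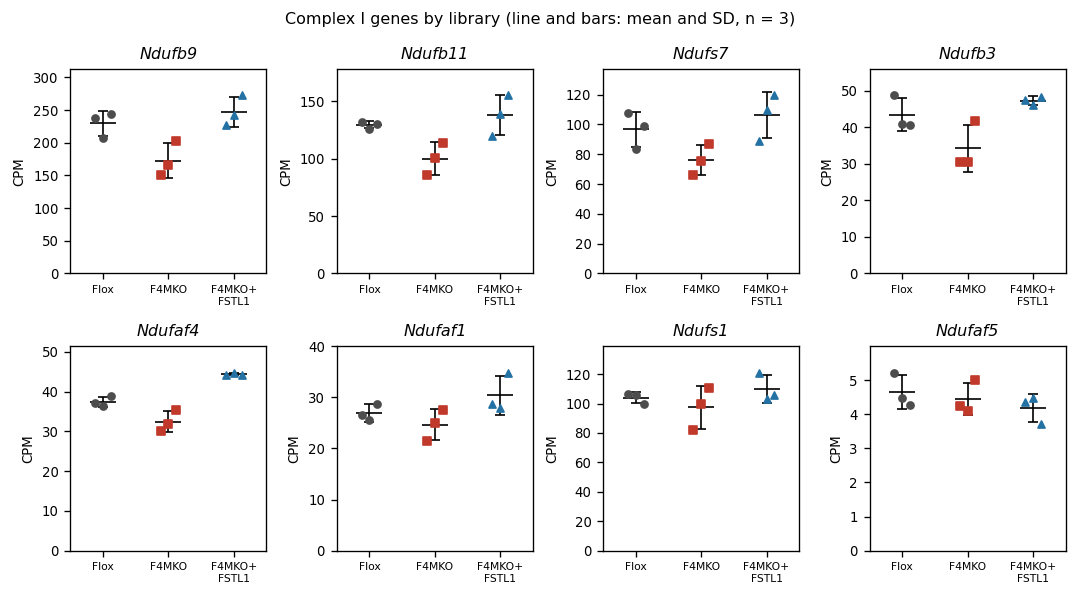
CPM of 8 members in each of the 9 libraries, with group mean and SD (n = 3), on axes that start at 0. In Ndufaf4 the F4MKO+FSTL1 libraries, at 44.2 to 44.8 CPM, lie above all others, whereas in Ndufs1 and Ndufaf5 the 3 groups overlap.

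The 2 genes outside complex I had values of like sign. Ndufa4 was at 387, 382 and 420.1 CPM in Flox, 285, 326 and 391.7 CPM in F4MKO, and 377, 393 and 468.5 CPM in F4MKO+FSTL1, with overlap in both comparisons (adjusted p = 0.38 and 0.131 by edgeR's test). Ndufa4l2 was near 2 CPM in every group, with adjusted p of 0.799 and 0.328.

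Other genes of the pathway were read for comparison. Of 10 further assembly factors of complex I, 0 passed in F4MKO versus Flox. In F4MKO+FSTL1 versus F4MKO, 2 of 10 rose at an adjusted p under 0.05, against 7.73% of all genes called higher. They were Ecsit, by 0.51 (adjusted p = 0.0108 by edgeR's test), and Tmem126b, by 0.45 (adjusted p = 0.0292). Acad9 and Tmem186, which like both of these and Ndufaf1 are parts of the MCIA complex, did not pass, with values of 0.06 and 0.26 (adjusted p = 0.755 and 0.173). The 7 complex I genes of mitochondrial DNA had medians of 0.06 and 0.09, and 0 of 7 passed in either comparison. By an unadjusted p under 0.05, 1 was lower in F4MKO (14.3%, against 7.51% of all genes) and 2 were higher in F4MKO+FSTL1 (28.6%, against 15.8%). Of the 7, ND3 differed by -0.43 and 0.40 (adjusted p = 0.174 and 0.0728). ND6 is encoded on the other strand than ND5, so RNA of the opposite strand can enter its counts if strand was not used. With TMM scaling, 41 of 41 tested nuclear genes of complexes II to V were lower in F4MKO and 40 higher in F4MKO+FSTL1, with medians of -0.27 and 0.30. Of these, 0 and 4 passed, and the 4 are 9.76%, near the 7.73% of all genes called higher. Of 75 mitochondrial ribosomal protein genes, 74 were lower and 73 higher, and 0 and 17 passed, all higher (22.7%, against 7.73% of all genes). Medians of the 14 genes of mitochondrial content were -0.10 and 0.22, and 0 passed in either comparison. Cs, citrate synthase, had values of 0.07 and -0.08. Of 12 regulators of mitochondrial biogenesis, 3 rose in F4MKO+FSTL1 versus F4MKO at an adjusted p under 0.05, against 7.73% of all genes called higher. They were the nuclear receptor Esrra, by 0.40 (adjusted p = 0.0224), and the mitochondrial transcription factors Tfam, by 0.38 (adjusted p = 0.0379), and Tfb2m, by 0.35 (adjusted p = 0.0264). The coactivator Ppargc1a had a value of -0.27 (adjusted p = 0.568).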

How the data were processed

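Liver RNA of 9 libraries in 3 groups was analysed. Reads of 150 bases, paired-end on BGIseq500, were processed by the authors, with Trim Galore 0.6.7, HISAT2 2.2.1, featureCounts 2.0.1 and build mm10 named in the submitters' processing notes. The authors deposited raw counts per gene, neither normalized nor filtered. The annotation, strandedness and how multi-mapping reads were handled, which bear on genes with pseudogenes or overlapping neighbours, are not given in the sources used here.

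Counts were tested in R 4.3.3 with edgeR 4.0.16 (filterByExpr, minimum count 10 and total 15; TMM; quasi-likelihood, a mean per group, all 9 libraries), with Benjamini-Hochberg adjustment over 14379 genes. Calls need an adjusted p under 0.05 and a fold change above 1.5, or the first alone. CPM use TMM sizes. Total counts of 20656976 to 24322984 per library limit precision little for subunits, but not for genes near 0. The methods name 3 liver samples per group without stating that each came from its own mouse, which is taken here. Pairs of libraries within a group differed by more than counting noise. Transcript lengths and GC come from GENCODE vM21 principal transcripts, found for 95.3% of genes.

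Members and lists were chosen with earlier results of these data known. Members named with values are core subunits, assembly factors, members with an adjusted p under 0.05, the largest and smallest value of each module and subunits of opposite sign; Ndufb2, Ndufb11, Ndufab1 and genes of other lists in addition were chosen after their values were seen. Alternatives were DESeq2 1.42.0, its size factors in edgeR, no filter, the 6 libraries compared, a replicate block, removal of a length and GC trend, and leaving out each library. Library totals without TMM were added after seeing the data. A centred form of the length and GC trend was added after the planned, uncentred form had been run and its counts seen, and both are reported. A tested subunit enters the counts and medians but is not reported by name here. The scripts were tested on simulated data. Markers of 7 cell types were read.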

Additional observations from a re-analysis of the deposited data

How the results depend on the processing

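In F4MKO versus Flox, 0 members passed under any setting run, and the median of subunits, -0.291, stayed negative, from -0.432 to -0.187 over libraries left out, -0.207 with the planned length and GC trend removed (-0.214 with block), -0.162 with it centred (-0.169 with block) and -0.183 with library totals. That of assembly factors, -0.127, ran from -0.217 to -0.035 over libraries left out and was -0.089, -0.044 and -0.017 with the trend, the centred trend and library totals. In F4MKO+FSTL1 versus Flox, 0 members passed under any setting run, but the subunit median of 0.072 ran from -0.008 to 0.13 over libraries left out and was 0.104, 0.039 and -0.007 with the same 3 settings, and that of assembly factors, 0.125, ran from 0.055 to 0.217 and was 0.137, 0.072 and 0.045. In F4MKO+FSTL1 versus F4MKO, the 9 members at an adjusted p under 0.05 became 16 with DESeq2, 23 with the replicate block, 0 with library totals, and 1 to 26 without single libraries. Of all genes, 20.9% passed in the fit reported, 13.5% with DESeq2, 24.1% with the block and 22.6% with library totals. Without single libraries that share was 10.6% to 20.9%. With the planned length and GC trend removed the count was 23 without and 23 with the replicate block, and with the trend centred, a form added after those counts were seen, 6 and 9. The shares of all genes were 30.7% and 32.5% in the planned form, and 22.3% and 24.2% in the centred form. The uncentred form moved the median of all genes to 0.127, and relative to that median subunits stood at 0.19 in both forms, against 0.33 in the fit reported. Members with a fold change above 1.5 as well were 1 with the uncentred trend, without or with the block, and 0 to 5 without single libraries. The median of assembly factors, 0.28, was 0.158 with that trend, 0.164 with block, 0.046 and 0.053 centred and 0.091 with library totals, which moved the subunit median to 0.147 and that of all genes to -0.184 and, in F4MKO versus Flox, to 0.114. The cause was not tested.

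Replicate numbers were not shown to pair the mice: deviations of same-numbered libraries correlated at 0.111, 0.0919 and 0.304 in this comparison, and 5 of 9 libraries correlated best with their own number. Among the genes named by the rule, signs turned as follows. In F4MKO versus Flox these were, with library totals, Ndufaf5 (0.052), Ndufaf6 (0.023), Ndufaf7 (0.049) and Ndufs1 (0.011), and with the length and GC trend Ndufaf5 (0.004 with block, 0.042 centred, 0.049 centred with block) and Ndufaf6 (0.026 in both centred forms). Without single libraries Ndufaf5 ran from -0.155 to 0.025, Ndufaf6 from -0.16 to 0.045, Ndufaf7 from -0.194 to 0.043 and Ndufs1 from -0.197 to 0.016. In F4MKO+FSTL1 versus F4MKO library totals gave Ndufa9 -0.023, Ndufaf7 -0.087, Ndufc1 -0.015 and Ndufs1 -0.01, and without single libraries Ndufaf5 ran from -0.144 to 0.003 and Ndufaf7 from -0.001 to 0.238. Ndufs3 and Ndufa7 had too few counts to test.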

Other observations

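Endothelial markers summed to 380.0 to 468 CPM in Flox, 307 to 387.5 CPM in F4MKO and 340 to 418 CPM in F4MKO+FSTL1 livers, and lymphocyte markers to 23.5 to 26.6, 24.8 to 34.7 and 14.9 to 25.5 CPM.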
